A study of Mus musculus with 8 samples.

Results

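The 26 genes described here are 19 enzymes of cholesterol synthesis, 4 genes that control the transcription factor SREBP2 (Srebf2, Scap, Insig1 and Insig2) and 3 genes of sterol uptake and transport (Stard4, Mylip and Npc1l1). They were taken by symbol from a table of 52636 mouse genes, all 26 were found, and all 26 had enough counts to be tested among the 16107 genes that did. The colons came from female wild-type C57BL/6 mice, listed as 6 weeks old and germ-free, and held in gnotobiotic isolators. Mice given a yeast were no longer germ-free when colon was taken. Whether the age is that at gavage or at collection is not stated here. The 3 groups were mice given C. albicans SC5314 by oral gavage (3 libraries), mice given C. tropicalis MYA-3404 by oral gavage (2 libraries) and control mice (3 libraries), with colon taken at day 30. Both yeasts were given at 100000000 colony-forming units. Strain, sex, age and housing were shared by all 3 groups. The labels number the replicates and do not say whether each is a separate mouse, and p-values therefore speak only of the variation among the 8 libraries, part of which may be technical. Isolator and cage cannot be told apart from group.

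Cells make cholesterol from acetyl-CoA through mevalonate, isoprenoid diphosphates, squalene and lanosterol. SREBP2, the product of Srebf2, is made as a membrane precursor of the endoplasmic reticulum and is held there by SCAP and the INSIG proteins while sterols are plentiful. When sterols run low, SCAP carries it to the Golgi, where proteases release a fragment that enters the nucleus and switches on the genes of the pathway, Insig1 among them. The colon epithelium renews itself continuously, and its cells make sterols for their membranes as well as taking them up.

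The libraries held 16195376 to 19761098 counts. Levels are given as CPM, counts scaled to a common library size with TMM factors. The tissue carried the markers of colon epithelium, all 10 of which were detected in every library, with a summed level of 16730 to 20977 CPM with C. albicans, 16810 to 19553 CPM with C. tropicalis and 13839 to 16736 CPM in control. Single markers of that list split the libraries another way. Cdx2, an intestinal transcription factor, stood at 224, 470.1 and 378 CPM with C. albicans and 26.3 and 28.6 CPM with C. tropicalis, against 339, 192 and 26.9 CPM in control. Car1, a carbonic anhydrase of colon epithelium, stood at 306, 432 and 179.5 CPM with C. albicans and 2231 and 2255 CPM with C. tropicalis, against 243, 388 and 1602 CPM in control. In both genes control 3 stood with the C. tropicalis libraries and apart from the other controls. Values without control 3 are given beside many of the results that change, and more of them in the last section. The summed level of 10 smooth muscle markers was 10241 to 29717 CPM with C. albicans, 4055 to 5291 CPM with C. tropicalis and 7227 to 13765 CPM in control, and that of 8 B cell markers was 13.2 to 68.9, 70.9 to 101.5 and 19.0 to 303.3 CPM in the same order of groups. In whole colon, fewer cells of a type and less RNA per cell cannot be told apart.

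With C. albicans, 21 of the 26 genes lay below control and 5 above, with a median log2 fold change of -0.27 against -0.016 over all genes tested. Of all genes tested, 51.8% lay below control. None of the 26 passed an adjusted p of 0.05 in edgeR's quasi-likelihood test, where 0.0435% of all genes (7 genes) did, while 7 of the 26 had an unadjusted p under 0.05 and lay lower, against 6.31% of all genes, and 0 lay higher at that p, against 9.13%. DESeq2 called 2 of them, Insig1 and Fdps, against 3.31% of all genes it adjusted. In every C. albicans library 5 of the 26 genes (19.2%) were below every control, against 9.57% of all genes, and Srebf2 alone was above, against 9.82%. These are Insig1, Fdps, Fdft1, Sc5d and Mylip. The median rests on control 2: without that library it was -0.022, with 14 of the 26 genes below control, and without control 3 it was -0.39, with 24 below.

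Insig1 encodes the sterol-sensing anchor that keeps SCAP and SREBP2 in the endoplasmic reticulum, and it is itself an SREBP2 target. It lies on chromosome 5 from 28071363 to 28078662 (GRCm38, ENSMUSG00000045294). Its level was 119, 88.5 and 114 CPM in C. albicans libraries 1, 2 and 3, and 110 and 91.7 CPM in C. tropicalis libraries 1 and 2, against 174, 251 and 170.1 CPM in controls 1, 2 and 3. All 5 colonized libraries lay below all 3 controls. The log2 fold change was -0.89 ± 0.19 with C. albicans (SE, adjusted p = 0.150) and -0.98 ± 0.22 with C. tropicalis (adjusted p = 0.164), which is 0.541 and 0.507 times the control level. Both comparisons use the same 3 controls. By DESeq2 the adjusted p was 0.00224 for C. albicans and 0.00247 for C. tropicalis. Without control 3 the log2 fold changes were -0.99 and -1.08. Over all settings tried other than DESeq2 the adjusted p ran from 0.0519 to 0.481 for C. albicans and from 0.0608 to 0.806 for C. tropicalis.

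Insig2 encodes the paralogue with the same anchoring role. It stood at 33.2, 36.3 and 33.1 CPM with C. albicans and 28.2 and 28.6 CPM with C. tropicalis, against 38.9, 37.5 and 24.8 CPM in control, so both colonized groups lay inside the control range. Its log2 fold change was 0.019 ± 0.17 with C. albicans (adjusted p = 0.963) and -0.25 ± 0.19 with C. tropicalis (adjusted p = 0.541). The first of these turned to -0.16 without control 3, -0.025 without C. albicans 2 and -0.14 after adjustment for a smooth muscle score, and the second was -0.43 without control 3 and turned to 0.064 after the same adjustment.

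Srebf2, on chromosome 15 from 82147181 to 82205379 (ENSMUSG00000022463), had the highest level per kilobase of exon of the 26 genes. It stood at 546, 529.9 and 587 CPM with C. albicans and 535 and 385 CPM with C. tropicalis, against 390.0, 482 and 435 CPM in control. The C. albicans libraries lay above all controls, whereas C. tropicalis 2 lay below them. The log2 fold change was 0.35 ± 0.16 with C. albicans (adjusted p = 0.332) and 0.079 ± 0.18 with C. tropicalis (adjusted p = 0.854). The C. tropicalis value was -0.17 without C. tropicalis 1, 0.30 without C. tropicalis 2, 0.16 without control 2, 0.0046 without control 1 and -0.049 after adjustment for a smooth muscle score. Scap encodes the escort of SREBP2. Its level was 159, 135 and 161 CPM with C. albicans and 184 and 142 CPM with C. tropicalis, against 95.0, 123 and 175 CPM in control, and the groups overlapped. Its log2 fold change was 0.21 ± 0.22 with C. albicans (adjusted p = 0.640) and 0.32 ± 0.24 with C. tropicalis (adjusted p = 0.538). Without control 1 the Scap values were 0.027 and 0.13, and without control 3 they were 0.48 and 0.58. Without C. tropicalis 1 and 2 in turn the second was 0.13 and 0.50. Adjustment for the muscle score gave 0.54 and -0.14.

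**Figure D1:**
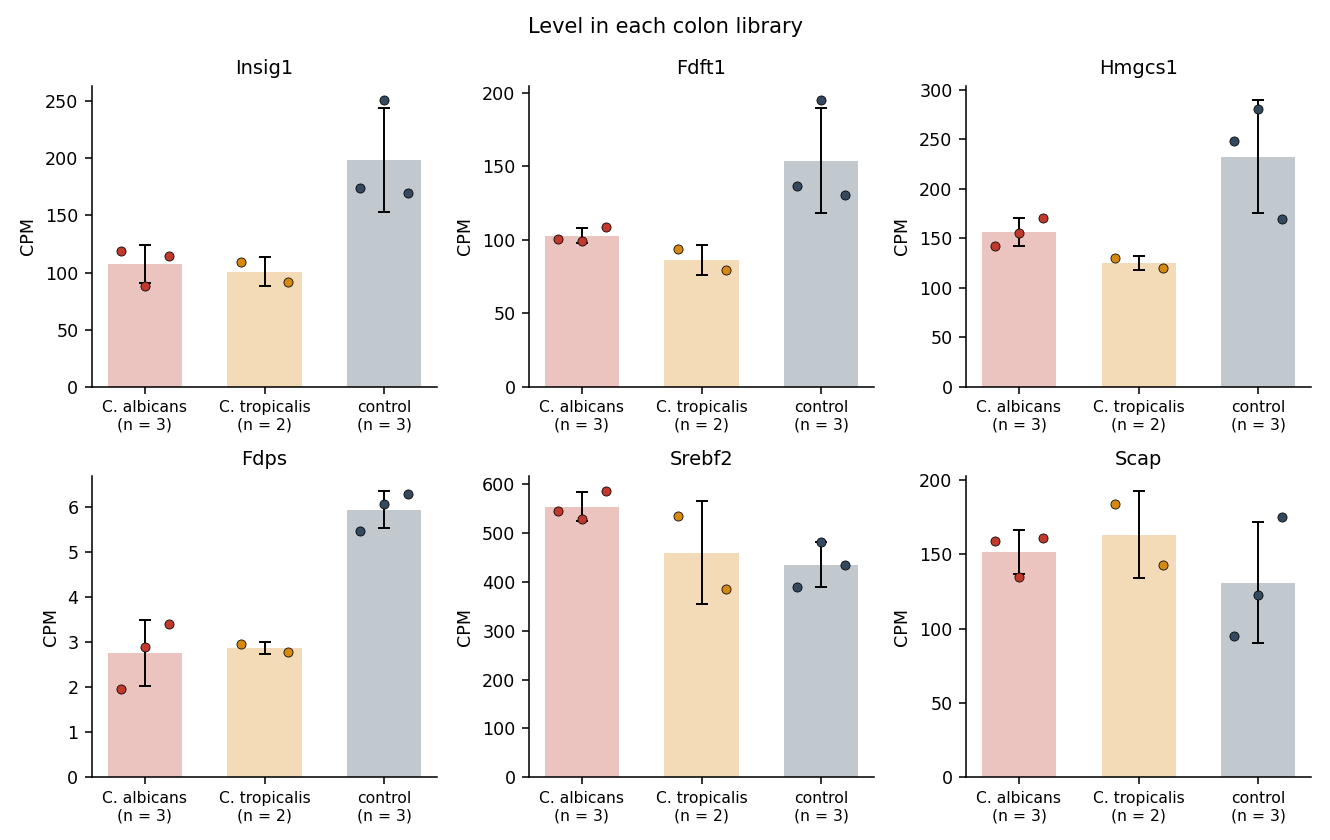
Level in CPM (y axis, from 0) of Insig1, Fdft1, Hmgcs1, Fdps, Srebf2 and Scap in each library (points), with the group mean (bar) and SD (whisker). For Insig1, Fdft1 and Fdps the 5 colonized libraries lie below the 3 controls, whereas for Scap the groups overlap.

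Among the enzymes, 18 of 19 lay below control with C. albicans (median log2 fold change -0.31) and 14 of 19 with C. tropicalis (median -0.25). Without control 2, the highest library for most of the genes, 11 of 19 lay below control with C. albicans (median -0.038) and 11 with C. tropicalis (median -0.052). Without control 3 these counts were 19 (median -0.41) and 15 (median -0.36). Hmgcs1 encodes HMG-CoA synthase, which commits acetoacetyl-CoA to the mevalonate route, and lies on chromosome 13 from 119690379 to 119708260 (ENSMUSG00000093930). Its level was 143, 155 and 171 CPM with C. albicans and 130.4 and 120.2 CPM with C. tropicalis, against 248, 280.4 and 169.6 CPM in control. Both C. tropicalis libraries lay below all controls, while C. albicans 3 and control 3 had nearly the same level. The log2 fold change was -0.58 ± 0.18 with C. albicans (adjusted p = 0.247) and -0.89 ± 0.21 with C. tropicalis (adjusted p = 0.168). With C. tropicalis it passed by DESeq2 (adjusted p = 0.00588) and without control 3 (-1.08, adjusted p = 0.0228). Acat2, the thiolase of the step before it, stood at 41.8, 28.5 and 30.5 CPM with C. albicans and 51.3 and 47.3 CPM with C. tropicalis, against 48.8, 59.3 and 30.8 CPM in control.

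Between mevalonate and the isoprenoids, 5 of 6 enzymes lay below control with each yeast. Fdps encodes farnesyl diphosphate synthase, at the branch between sterols and isoprenoids, on chromosome 3 from 89093588 to 89101959 (ENSMUSG00000059743). It stood at 1.97, 2.89 and 3.41 CPM with C. albicans and 2.97 and 2.78 CPM with C. tropicalis, against 5.48, 6.08 and 6.29 CPM in control. Its 5 colonized libraries lay below all 3 controls. The log2 fold change was -1.11 ± 0.26 with C. albicans (adjusted p = 0.165; 0.0169 by DESeq2, and from 0.119 to 0.485 under the other settings) and -1.05 ± 0.29 with C. tropicalis (adjusted p = 0.216). Fdps rests on 562 counts in the 8 libraries together and 35 in the lowest library. Its exons are overlapped on the same strand by Gm43738, listed at 0 counts, so reads that fit both genes may have been set aside and the level is uncertain. Mvk and Pmvk, the kinases of mevalonate, Mvd, the decarboxylase, and Idi1, the isomerase, had log2 fold changes from -0.41 to -0.066 with C. albicans and from -0.48 to 0.16 with C. tropicalis. For Mvd, 0.716 times control with C. tropicalis (log2 -0.48 ± 0.32, adjusted p = 0.481), the value was -0.093 without control 2, -0.76 without C. tropicalis 1 and -0.25 without C. tropicalis 2. Ggps1, which makes the longer isoprenoid used to anchor small GTPases, was the only enzyme of the 19 above control with C. albicans, at 15.6, 16.3 and 14.7 CPM against 17.3, 15.0 and 14.1 CPM in control (log2 0.0061 ± 0.14).

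Fdft1 encodes squalene synthase, the first enzyme that serves sterols alone, on chromosome 14 from 63145150 to 63179578 (ENSMUSG00000021273). Its level was 100.3, 99.1 and 109 CPM with C. albicans and 93.4 and 79.1 CPM with C. tropicalis, against 136, 195 and 130.0 CPM in control. No colonized library reached the lowest control. The log2 fold change was -0.58 ± 0.17 with C. albicans (adjusted p = 0.231) and -0.83 ± 0.19 with C. tropicalis (adjusted p = 0.168; 0.00689 by DESeq2), and without control 2 the C. albicans value was -0.35. Fdft1 shares exon sequence on the opposite strand with the protease gene Ctsb, whose own log2 fold changes were -0.12 ± 0.15 with C. albicans and 0.029 ± 0.16 with C. tropicalis. The next enzymes, Sqle (squalene monooxygenase) and Lss (lanosterol synthase), overlapped between groups. Sqle stood at 142, 122 and 160.2 CPM with C. albicans and 164 and 115 CPM with C. tropicalis, against 144, 192 and 129.6 CPM in control.

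Of the 8 enzymes that turn lanosterol into cholesterol, 8 lay below control with C. albicans and 5 with C. tropicalis. Sc5d, a desaturase of the sterol ring, stood at 79.5, 67.2 and 66.3 CPM with C. albicans and 86.0 and 88.1 CPM with C. tropicalis, against 87.4, 104 and 80.6 CPM in control. Its C. albicans libraries lay below all controls by a narrow margin (log2 -0.35 ± 0.14, adjusted p = 0.283; -0.22 without control 2). Hsd17b7, the ketone reductase that acts during removal of the methyl groups, stood at 19.6, 15.8 and 20.1 CPM with C. albicans and 17.9 and 14.3 CPM with C. tropicalis, against 23.6, 27.0 and 18.5 CPM in control. Here both C. tropicalis libraries lay below all controls (log2 -0.52 ± 0.20, adjusted p = 0.294). Tm7sf2, a reductase of the sterol ring, stood at 40.0, 30.6 and 30.8 CPM with C. albicans and 48.7 and 52.8 CPM with C. tropicalis, against 39.2, 47.2 and 44.8 CPM in control. It lay on opposite sides of control in the colonized groups, with log2 -0.37 ± 0.14 with C. albicans (adjusted p = 0.282; -0.24 after adjustment for a smooth muscle score) and both C. tropicalis libraries above all controls. Tm7sf2 shares exons on its own strand with Vps51, whose log2 fold change with C. albicans was 0.16 ± 0.12. Cyp51, which removes the first methyl group of lanosterol, had log2 -0.38 ± 0.26 with C. tropicalis (adjusted p = 0.491; -0.19 without control 2, -0.62 without control 3, -0.15 with the smooth muscle score) and overlapped with control in both groups. It shares exon sequence with Akap9 on the other strand, whose log2 fold change was -0.59 ± 0.20 with C. albicans (adjusted p = 0.259), with every library below every control, and -0.065 ± 0.22 with C. tropicalis. Cyp51 itself had -0.25 with C. albicans, and reads of the overlap cannot be told apart.

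With C. tropicalis, 19 of the 26 genes lay below control (73.1%, against 52.1% of all genes), with a median log2 fold change of -0.25 against -0.019 over all genes. None passed an adjusted p of 0.05 in edgeR's test, where 0.031% of all genes (5 genes) did. At an unadjusted p under 0.05, 5 lay lower, against 8.05% of all genes, and 0 higher, against 7.33%. DESeq2 called 3, namely Insig1, Hmgcs1 and Fdft1, against 2.79% of all genes it adjusted. In both C. tropicalis libraries 5 genes (19.2%) lay below every control, against 16.5% of all genes, so that share is near the background; they are Insig1, Hmgcs1, Fdps, Fdft1 and Hsd17b7. Only Tm7sf2 lay above every control, against 16.0% of all genes. The median was -0.12 without control 2 and -0.39 without control 3. Taking all 5 colonized libraries together, Insig1, Fdps and Fdft1 lay below all 3 controls, which is 11.5% of the 26 genes, against 3.08% of all genes tested, and 0 of the 26 lay above, against 3.61%.

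**Figure D2:**
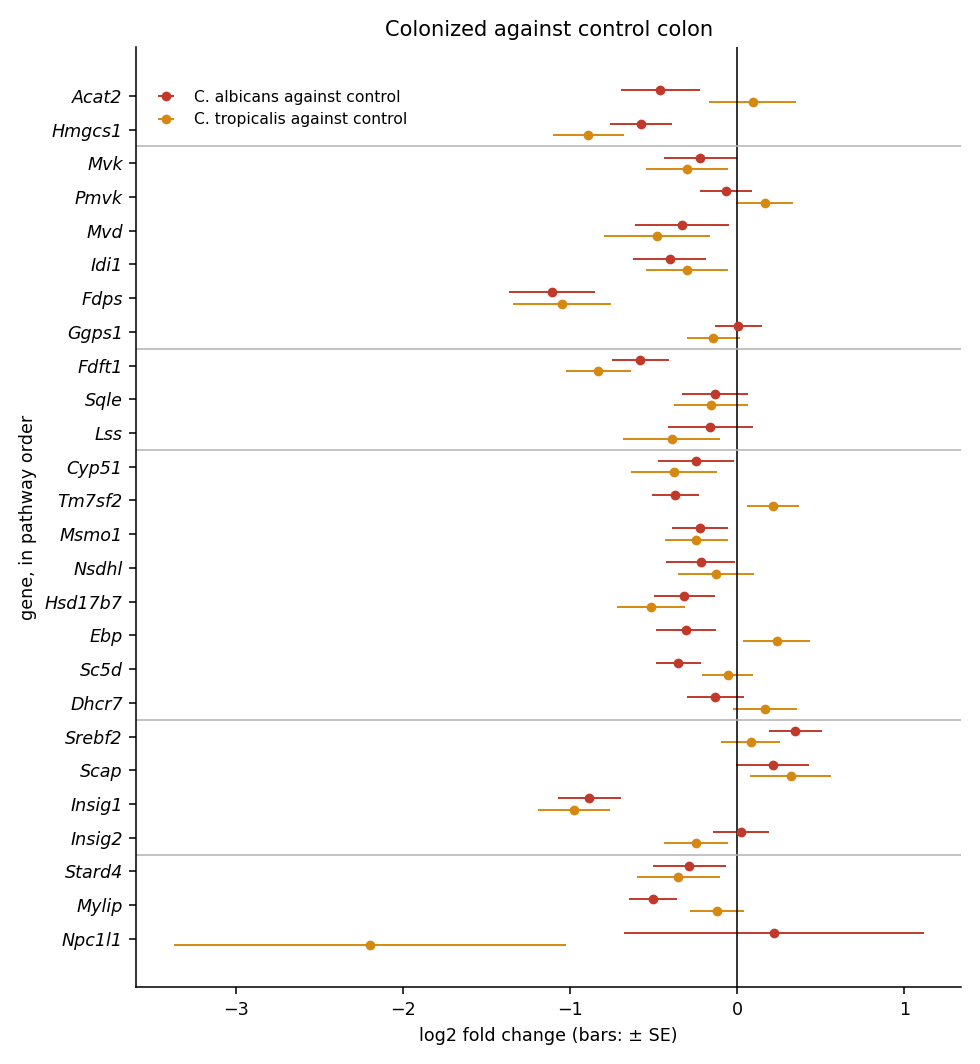
Log2 fold change (x axis, point) with its SE (whisker) of each of the 26 genes for C. albicans against control and C. tropicalis against control, in pathway order with grey lines between steps. Insig1, Fdps, Fdft1 and Hmgcs1 lie farthest below 0 in both comparisons apart from Npc1l1, which lies at -2.20 with C. tropicalis with a wide error, and both comparisons share the 3 controls.

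Between the yeasts the median log2 difference of the 26 genes, C. tropicalis minus C. albicans, was -0.044, against 0.038 over all genes, and 15 of the 26 (57.7%) lay lower with C. tropicalis, against 46.3% of all genes. None of the 26 passed in edgeR's test, where 0.0% of all genes did; 3 had an unadjusted p under 0.05 and lay higher with C. tropicalis (8.83% of all genes) and 0 lay lower (14.4%). DESeq2 called 1, Tm7sf2, against 11.0% of all genes it adjusted. In 7 of the 26 (26.9%, against 23.4% of all genes) both C. tropicalis libraries lay above all C. albicans libraries, and in 3 (11.5%, against 22.4% of all genes), which are Hmgcs1, Fdft1 and Insig2, both lay below them. The 4 smallest p-values were those of Tm7sf2 (log2 0.59 ± 0.16, adjusted p = 0.0788), Ebp, a sterol isomerase (0.54 ± 0.20, adjusted p = 0.153), Mylip (0.39 ± 0.16, adjusted p = 0.191) and Acat2 (0.55 ± 0.26, adjusted p = 0.244). Tm7sf2 passed without C. albicans 1 (0.69, adjusted p = 0.0294) and by DESeq2 (adjusted p = 0.0255). Ebp stood at 106 and 117 CPM with C. tropicalis, against 85.7, 71.9 and 72.7 CPM with C. albicans, and at 69.7, 114 and 101.2 CPM in control, whose range held all C. albicans libraries and C. tropicalis 1. After adjustment for a smooth muscle score the values were 0.23 for Tm7sf2, 0.16 for Ebp and -0.091 for Mylip.

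A single control carried much of the spread. Control 2 was the highest of the 8 libraries for 15 of the 26 genes, against 11.4% of all genes tested. Control 1 was highest for 4 and control 3 for 2. At the other end, C. tropicalis 2 was lowest for 9 of the 26 and C. albicans 2 for 8, against 10.2% and 15.8% of all genes. The 26 genes took 0.242%, 0.208% and 0.241% of all counts in C. albicans libraries 1, 2 and 3, and 0.247% and 0.211% in C. tropicalis libraries 1 and 2, against 0.274%, 0.312% and 0.245% in controls 1, 2 and 3. Control 3 thus lay among the colonized libraries in the summed level. The mean of log2(CPM + 0.5) over the 19 enzymes, relative to the 8 libraries, was -0.13 ± 0.11 with C. albicans, -0.064 ± 0.12 with C. tropicalis and 0.17 ± 0.28 in control (SD, n = 3, 2 and 3), so the group means differed by no more than about the spread of the controls.

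**Figure D3:**
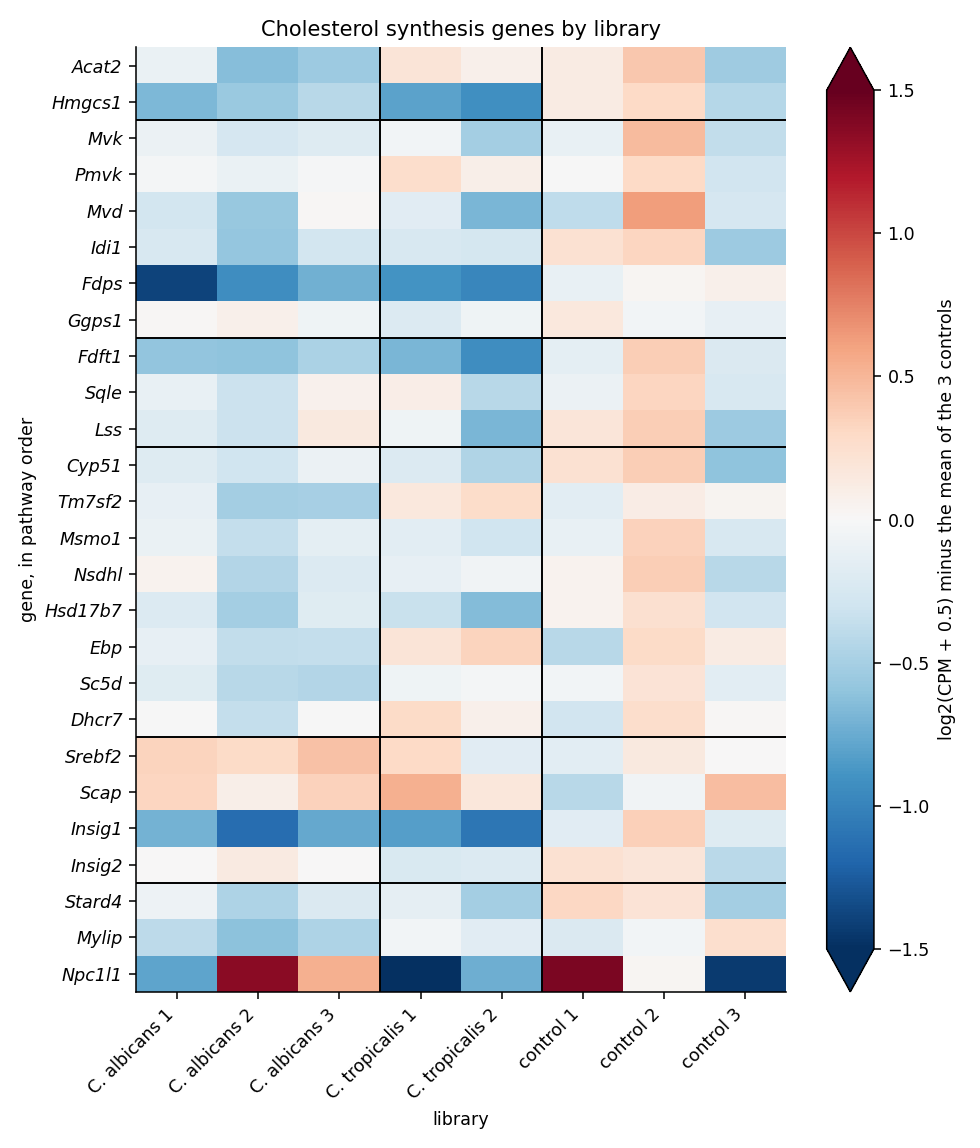
Each cell is log2(CPM + 0.5) of 1 gene (rows, in pathway order, black lines between steps) in 1 library (columns), minus the mean of the 3 controls; blue is lower and red is higher, and colours saturate at 1.5. The rows of Insig1, Fdps and Fdft1 are blue in all 5 colonized libraries, and control 2 is red in most enzyme rows.

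Levels per kilobase of exon (CPM divided by the union exon length) spanned the pathway widely. As means over the 8 libraries they ran from 67.7 for Srebf2, 54.4 for Mvd, 45.2 for Insig1, 40.0 for Ebp and 38.6 for Hmgcs1 down to 3.21 for Ggps1, 0.947 for Fdps and 0.485 for Npc1l1. Insig1 and Insig2 differed on this scale as well, with means of 34.7 and 9.84 with C. albicans, 32.5 and 8.17 with C. tropicalis, and 64.1 and 9.71 in control. Within a library, the ratio of Insig1 to Insig2 CPM was 3.60, 2.44 and 3.45 with C. albicans and 3.89 and 3.21 with C. tropicalis, against 4.47, 6.70 and 6.85 in control. The ratio of Insig1 to Srebf2 was 0.219, 0.167 and 0.195 with C. albicans and 0.205 and 0.238 with C. tropicalis, against 0.446, 0.521 and 0.391 in control. That of Hmgcs1 to Srebf2 was 0.261, 0.292 and 0.291 with C. albicans and 0.244 and 0.312 with C. tropicalis, against 0.636, 0.582 and 0.390 in control. These 3 ratios, and that of Fdft1 to Srebf2, separated the 5 colonized libraries from the 3 controls. Insig1 and Fdft1 lay below all controls by themselves, as did 3.08% of all genes tested, and Srebf2 lay above all controls with C. albicans. Separation of ratios built from them is therefore partly given by the choice of genes. How many other pairs of genes separate the same libraries was not counted. The ratio of Dhcr7 to Hmgcs1 did not, at 1.03, 0.741 and 0.863 with C. albicans and 1.38 and 1.29 with C. tropicalis, against 0.489, 0.634 and 0.878 in control. That of Sqle to Hmgcs1 did, at 0.996, 0.791 and 0.938 with C. albicans and 1.26 and 0.956 with C. tropicalis, against 0.583, 0.686 and 0.764 in control, with the controls lower. The 6 ratios do not depend on library scaling, but they were picked after the levels had been seen and were not tested.

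**Figure D4:**
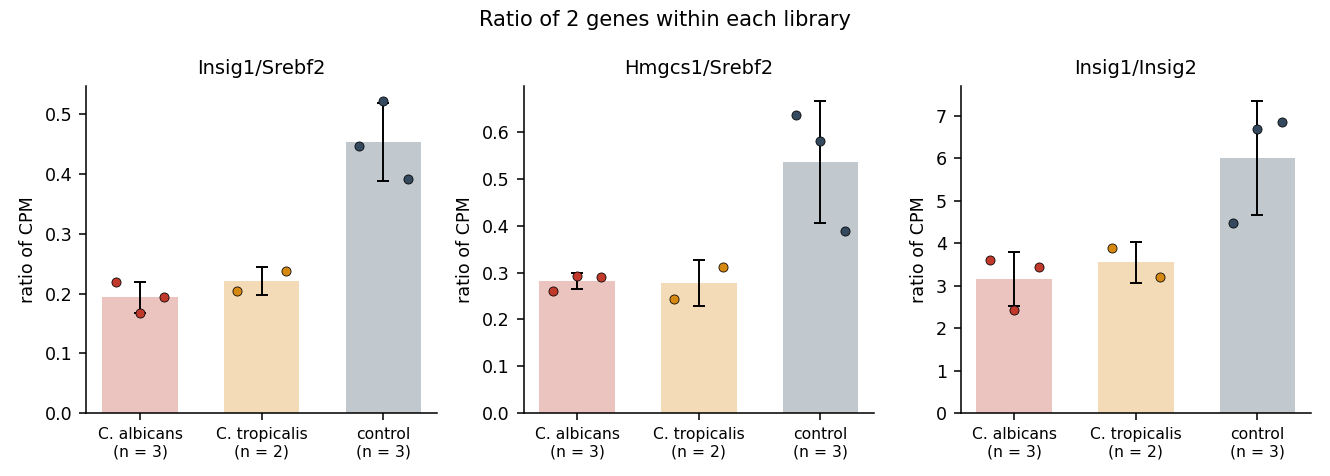
Ratio of the CPM of 2 genes within a library (y axis, from 0) for Insig1 over Srebf2, Hmgcs1 over Srebf2 and Insig1 over Insig2, as points with the group mean (bar) and SD (whisker). In each panel the colonized libraries lie below the lowest control, for example 0.167 to 0.238 against 0.391 for Insig1 over Srebf2. The pairs were picked after the levels had been seen.

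Of the uptake and transport genes, Stard4, which carries sterol between membranes and is an SREBP2 target, stood at 112, 85.8 and 101.6 CPM with C. albicans and 108 and 82.9 CPM with C. tropicalis, against 147, 136 and 83.0 CPM in control. Mylip encodes a ubiquitin ligase of the oxysterol receptors LXR that removes lipoprotein receptors from the cell surface. It stood at 29.8, 25.5 and 28.4 CPM with C. albicans and 38.1 and 34.8 CPM with C. tropicalis, against 33.7, 38.2 and 46.9 CPM in control, and lay below all controls in the C. albicans libraries (log2 -0.51 ± 0.14, adjusted p = 0.225; -0.32 after adjustment for a smooth muscle score). Npc1l1, the cholesterol importer of the absorptive epithelium of the small intestine, had the lowest mean level of the 26 genes per kilobase of exon, and stood at 0.787, 5.20 and 2.74 CPM with C. albicans and 0.228 and 0.850 CPM with C. tropicalis, against 5.43, 1.79 and 0.323 CPM in control. A count of 0 allows up to 0.157 to 0.183 CPM depending on the library, which covers counting error only. Its log2 fold change with C. tropicalis, -2.20 ± 1.17 (adjusted p = 0.392), turned to 1.05 after that adjustment. It was -3.41 without C. tropicalis 2. Of the 7 small intestine markers tested, 2 lay above control with C. albicans and 3 with C. tropicalis, and they did not order the libraries alike. Alpi, an intestinal phosphatase, stood at 8.15, 51.8 and 34.7 CPM with C. albicans and 0.343 and 1.47 CPM with C. tropicalis, against 46.4, 11.9 and 0.592 CPM in control, which is the order of Npc1l1 within each group. Rbp2, a retinol carrier, stood at 37.9, 21.6 and 29.3 CPM with C. albicans and 68.0 and 77.3 CPM with C. tropicalis, against 48.5, 70.1 and 60.2 CPM in control, in another order. Cdx2 of the colon epithelium list and the smooth muscle score also had the order of Npc1l1 within each group, so that order is not particular to Alpi. The part of the small intestine markers in the Npc1l1 levels was not tested.

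Promoter sequence was at hand for 22 of the 26 genes, as 28 windows that run from 250 bases before to 50 bases after an annotated start (RefSeq, GRCm38.p6). There was none for Fdps, Fdft1, Sqle and Stard4, so the motif shares leave these genes out. Those of Hmgcs1, Insig1 and Srebf2 are shown because the results turn on the difference in level between these genes. Capitals mark the sterol regulatory element TCACCCCAC and the CCAAT box (CCAAT, or ATTGG on the other strand), which binds the SREBP partner NF-Y; each is written along the strand of its gene. Their positions are chr13:119690101-119690400 (plus strand), chr5:28071162-28071461 (plus strand) and chr15:82147019-82147318 (plus strand).
Hmgcs1: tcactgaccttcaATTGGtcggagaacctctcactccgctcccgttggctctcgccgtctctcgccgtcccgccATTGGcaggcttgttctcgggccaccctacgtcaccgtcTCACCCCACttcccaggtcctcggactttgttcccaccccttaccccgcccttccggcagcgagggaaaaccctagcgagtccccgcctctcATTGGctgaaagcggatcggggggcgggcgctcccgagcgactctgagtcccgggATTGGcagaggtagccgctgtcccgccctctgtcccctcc
Insig1: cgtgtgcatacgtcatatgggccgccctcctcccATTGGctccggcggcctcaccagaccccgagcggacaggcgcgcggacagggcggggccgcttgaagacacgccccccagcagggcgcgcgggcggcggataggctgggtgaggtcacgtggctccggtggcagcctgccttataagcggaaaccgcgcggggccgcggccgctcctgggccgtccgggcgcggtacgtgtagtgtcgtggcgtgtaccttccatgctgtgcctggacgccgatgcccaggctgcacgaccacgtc
Srebf2: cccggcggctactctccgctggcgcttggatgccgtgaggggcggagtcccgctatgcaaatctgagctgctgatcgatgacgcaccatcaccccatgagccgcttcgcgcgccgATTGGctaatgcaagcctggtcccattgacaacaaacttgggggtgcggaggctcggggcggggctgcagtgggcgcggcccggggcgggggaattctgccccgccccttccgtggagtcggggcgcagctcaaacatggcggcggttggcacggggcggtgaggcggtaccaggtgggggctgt

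The Hmgcs1 window holds 1 sterol regulatory element in this spelling and 4 CCAAT boxes, that of Insig1 holds 1 CCAAT box and that of Srebf2 1. The Srebf2 window also reads tcaccccat, which differs from that spelling in its last base and was not counted. Lack of the element therefore refers to the spellings searched only. Searched on both strands, TCACCCCAC was in 1 of the 28 windows (3.57%), against 0.551% of all 32851 windows in the table, and the looser form TCACNCCAC, which includes it, was in the same 1 window, against 1.24%. CCAAT was in 20 of the 28 (71.4%), against 37.4% of all windows. The GC box GGGCGG, bound by Sp1, was in 22 (78.6%), against 35.7%, and the E-box CACGTG in 6 (21.4%), against 7.15%, among them that of Insig1. The table covers genes of every class, expressed in colon or not, and windows of 1 gene can overlap, so these shares are a description.

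Around the pathway, the genes that process SREBP or degrade proteins of the endoplasmic reticulum lay above control in 11 of 17 cases with C. albicans (median log2 0.059) and 14 of 17 with C. tropicalis (0.23), and 0 passed in either. Syvn1, a ubiquitin ligase of that membrane, had log2 0.84 ± 0.20 with C. albicans (adjusted p = 0.177), and Sec24d, a coat protein of the vesicles that leave it, had 0.37 ± 0.11 with C. albicans (adjusted p = 0.238) and 0.46 ± 0.12 with C. tropicalis (adjusted p = 0.206). The 13 genes that use isoprenoids had a median of -0.095 with C. albicans and 0.15 with C. tropicalis, the 16 of sterol trafficking and esterification -0.11 and 0.049, and the 9 of LXR and sterol efflux -0.10 and 0.0066, and 0 of these genes passed. Nus1, a subunit of the enzyme that makes dolichol, was at 101, 135 and 141 CPM with C. albicans and 124.9 and 105 CPM with C. tropicalis, against 93.6, 100.6 and 73.9 CPM in control (log2 0.49 ± 0.17, adjusted p = 0.264, and 0.37 ± 0.19, adjusted p = 0.386), and every colonized library lay above every control, the lowest of them by a narrow margin. Soat1, which esterifies cholesterol, was at 59.4 and 56.1 CPM with C. tropicalis, against 28.4, 38.5 and 47.5 CPM in control (0.60 ± 0.21, adjusted p = 0.265). Gramd1b of the same list went the other way with C. tropicalis (-0.54 ± 0.21, adjusted p = 0.292), as did Npc2 with C. albicans (-0.81 ± 0.31, adjusted p = 0.278). In both C. tropicalis libraries 2 of these 16 genes lay above every control and 4 below, against 16.0% and 16.5% of all genes. The 16 genes of fatty acid synthesis under SREBP1 had a median of 0.061 with C. albicans and 0.088 with C. tropicalis, and 0 passed. The 2 yeasts lay on opposite sides of control for Acacb, an acetyl-CoA carboxylase, at 22.5, 51.9 and 36.1 CPM with C. albicans and 8.79 and 7.88 CPM with C. tropicalis, against 26.1, 15.5 and 14.6 CPM in control (0.98 ± 0.31, adjusted p = 0.247, and -1.17 ± 0.37, adjusted p = 0.249). Its C. albicans libraries overlapped control. Acacb was highest in C. albicans 2, which also had the highest smooth muscle score, and the part of muscle in its level was not tested.

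Clock genes and markers of other cells also differed between the groups in level. Of 16 clock genes, 3 passed as higher and 1 as lower with C. albicans, where 0.0435% of all genes passed in either direction. With C. tropicalis 1 passed as higher, where 0.031% of all genes did. Besides Per2, those of C. albicans were Arntl (log2 -1.69 ± 0.14, adjusted p = 0.00941), Ciart (2.56 ± 0.26, adjusted p = 0.0158) and Per1 (1.31 ± 0.14, adjusted p = 0.0222). In each of them all 5 colonized libraries lay on 1 side of all 3 controls. Per2, a clock repressor, stood at 143, 131 and 174 CPM with C. albicans and 259 and 167 CPM with C. tropicalis, against 35.1, 40.4 and 30.0 CPM in control (log2 2.09 ± 0.20, adjusted p = 0.0150, and 2.60 ± 0.22, adjusted p = 0.0134). The hour of collection is not in the labels. Smooth muscle markers lay above control in 10 of 10 cases with C. albicans (median log2 0.78) and below it in 10 of 10 with C. tropicalis (-1.05), and 0 of them passed in either. After adjustment for a smooth muscle score the log2 fold changes of Insig1, Fdps and Fdft1 were -0.78, -1.21 and -0.59 with C. albicans and -1.19, -0.90 and -0.81 with C. tropicalis. Relative to the 8 libraries, that score was -1.32 and -0.92 with C. tropicalis, -0.53 to 0.48 in control and -0.015 to 1.47 with C. albicans. The C. tropicalis scores thus did not overlap those of either other group. Adjusted values that involve C. tropicalis, here and above, therefore cannot tell muscle from group. B cell markers lay below control in 8 of 8 cases with each yeast (median -1.94 and -1.13), and 0 passed, with the lowest control, at 19.0 CPM in their summed level, inside the range of the colonized libraries. Proliferation markers lay below control in 7 of 8 cases with C. albicans (median -0.34) and above it in 8 of 8 with C. tropicalis (0.60), and 0 passed. The part of muscle, clock genes, B cells and proliferation in the levels of the sterol genes was not tested.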

How the data were processed

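Colon RNA of 8 libraries, prepared with the NEBNext Ultra kit per the labels' protocols, was deposited by the authors as unnormalized whole-number counts per Ensembl gene. Tools named in the submitters' processing notes are TopHat2 2.0.12, HTSeq (written as 6.1) and DESeq 1.18.0, with build mm10. For the annotation release and the strand setting, nothing is given in the sources used, so reads of genes that overlap on opposite strands cannot be told apart. Symbols, positions and exon lengths came from GENCODE M21 on that build, which held 52489 of 52636 identifiers.

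Differences were tested on these counts by edgeR 4.0.16 under R 4.3.3 (TMM, filterByExpr, quasi-likelihood F-test) in 1 fit of the 3 groups with 5 residual degrees of freedom, and p-values were adjusted by Benjamini-Hochberg over 16107 genes with a threshold of 0.05. The SE is the log2 fold change divided by the square root of F. The fit was checked on simulated data. The smooth muscle score is the mean log2(CPM + 0.5) of 10 markers. Alternatives were DESeq2 1.42.0, its size factors, no filter, only the 2 groups, a replicate block, the muscle covariate and each library left out.

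Fold changes are given for the 8 genes with the smallest p in each comparison with control, the 4 smallest between the yeasts, and the SREBP2 control genes. In the other lists the genes past the threshold, or the 2 with the smallest p, could be named, and a selection of them is. Members and lists were chosen with earlier results of these data known. Same-group libraries differed by more than counting noise. Figures were drawn with matplotlib 3.10.9.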

Additional observations from a re-analysis of the deposited data

How the results depend on the processing

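No value of the 26 genes passed in edgeR's test with all libraries, and the calls depended on the tool. With C. albicans, genes called numbered 7, against 460 with DESeq2 (2 of the 26 genes), 119 with no filter on low counts, 11 with the smooth muscle covariate and 0 with the replicate block. Left-out libraries gave 0 to 254, namely 1 without control 1, 1 without control 2, 2 without control 3, 254 without C. albicans 1 and 0 without C. albicans 3. With C. tropicalis the count was 5, against 396 with DESeq2 (3 of the 26), 71 with no filter, and 0 with the replicate block, the muscle covariate or only the 2 groups. It was 0 without control 1, control 2 or C. tropicalis 1, 1 without C. albicans 2, C. albicans 3 or C. tropicalis 2, and 192 without control 3, with 0 to 1 of the 26 called. Between the yeasts it was 0, against 1739 with DESeq2 (1 of the 26), 1127 with no filter and 858 with only the 2 groups; it was 0 to 1315 with 1 library left out, namely 925 without control 1, 897 without control 3 and 1315 without C. albicans 1, with 0 to 1 of the 26 called. The cause was not tested.

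Chosen after seeing the data, fits without control 2 or control 3 gave 11 to 19 of 19 enzymes below control with C. albicans (median -0.41 to -0.038), and enzyme medians of -0.36 to -0.052 with C. tropicalis. The median of the 26 genes with C. albicans ran from -0.39 to -0.022 with 1 library left out. Without control 3 the C. albicans log2 fold changes were -0.37 for Mylip, -0.69 for Fdft1 and -0.43 for Sc5d. Directions turned for Insig2 with C. albicans (-0.14 with the muscle covariate, -0.16 to 0.14 with 1 library left out) and, with C. tropicalis and the muscle covariate, for Npc1l1 (1.05), Srebf2 (-0.049), Scap (-0.14) and Insig2 (0.064). Srebf2 with C. tropicalis ran from -0.17 to 0.30 with 1 library left out, and Mylip between the yeasts turned to -0.091 with the muscle covariate. Direction was followed only for the genes picked by smallest p and for the SREBP2 control genes. Their other values kept direction in each alternative. Others of the 26 genes did turn: with C. albicans 18 of 19 enzymes lay below control, and 11 without control 2. Fits with 1 C. tropicalis library take its spread from the remaining groups. Replicate numbers gave no sign of pairing the samples: deviations of same-numbered libraries correlated from -0.38 to 0.17. With so few libraries in a group this check cannot exclude pairing. With the replicate block the values of Insig1 were -0.88 and -1.01 against control. Low counts limit Fdps and Npc1l1 most.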
